A study of Oryza sativa with 36 samples.

Results

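The transcripts of 9 sugar metabolism loci of rice were followed through 36 RNA-Seq libraries of zaxinone-treated and mock-treated seedlings. They are 9 of the 10 root loci that the study took from the OryzaCyc pathway database to check by qRT-PCR, and 9 of the 26368 transcripts listed in all 6 count tables of the series. Because these loci were chosen for their change in roots 6 h after zaxinone application, the values of that comparison are given as a description, without a test. The identifiers of the tables are not paired with gene names here, so each locus is named by the reaction the study lists for it. In the tables they appear as loc_os01g06660.1, loc_os02g10070.1, loc_os02g48360.1, loc_os05g06460.1, loc_os05g33570.1, loc_os07g46920.1, loc_os08g02700.1, loc_os09g12650.1 and loc_os10g26570.1, and are written below without prefix and transcript number. By their reactions the loci are an ATP-dependent phosphofructokinase (Os10g26570), diphosphate-dependent phosphofructokinases (PFP; Os02g48360 and Os09g12650), a fructose-bisphosphate aldolase (Os08g02700), a pyruvate, phosphate dikinase (Os05g33570), a 2-oxo acid decarboxylase with the reaction of pyruvate decarboxylase (Os01g06660), a dihydrolipoyl dehydrogenase (Os05g06460), a citrate synthase (Os02g10070) and a secoisolariciresinol dehydrogenase (Os07g46920).

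The samples were roots and shoots of 3-week-old wild-type Nipponbare seedlings in hydroponic culture. Harvest was 2, 6 or 24 h after 5 µM zaxinone, a growth-regulating apocarotenoid, or a mock solution with the acetone solvent was applied. The nutrient solution contained phosphate, and the titles of all 36 samples carry the mark +P, so that zaxinone and mock plants shared this supply. Each of the 12 conditions held 3 libraries, each of an organ with all its cell types, so a change in the number of cells of a type and a change in RNA per cell cannot be told apart. Total counts ranged from 11261992 to 36469854 reads per library, with a median of 25265203. The smallest library, zaxinone replicate 2 of the roots at 24 h, stood apart from the others of its time, with correlations of 0.849 to 0.880 against the other 5 libraries, and log2 fold changes of zaxinone in roots at 24 h are therefore also given without it. The organ labels were checked with marker loci: 4 root markers summed to 3653 to 8832 CPM (reads scaled to a common library size) in root libraries. In shoot libraries the root markers found, 3 of the 4 at 2 and 6 h and 1 at 24 h, summed to at most 17.4 CPM. The 5 photosynthesis loci found of 6 listed summed to 34634 to 51847 CPM in shoots and to 437 to 2864 CPM in roots.

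Glycolysis breaks hexose phosphates down to pyruvate, and its pace in plants is set in part at the conversion of fructose 6-phosphate into fructose 1,6-bisphosphate. The ATP-dependent phosphofructokinase runs this step forward, PFP runs it reversibly with pyrophosphate as the phosphate donor, and aldolase then splits the product into triose phosphates. At the lower end of the pathway, pyruvate, phosphate dikinase can turn pyruvate back into phosphoenolpyruvate, pyruvate decarboxylase leads to acetaldehyde, and dihydrolipoyl dehydrogenase serves the complexes that oxidise pyruvate and 2-oxoglutarate. Citrate synthase brings acetyl-CoA into the tricarboxylic acid (TCA) cycle. Secoisolariciresinol dehydrogenase belongs to the synthesis of lignans, phenolic compounds related to the precursors of lignin, and is listed by the study under sucrose degradation.

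The qRT-PCR primers of the study give the sequence by which each locus was distinguished. Among the 20 primers of the 9 loci, 18 to 22 bases long, 352 comparisons between primers of different loci were made on both strands. The longest shared run, 16 bases, lay between the PFP loci, and the next longest over all other pairs of loci was 8 bases. The pair is shown because it marks a stretch that these loci have in common; capitals mark the shared bases, which are reverse complements of each other, and each primer is written 5′ to 3′.
Os02g48360 forward: ggaaTACTTGGAGAAGGTGAaa
Os09g12650 reverse: ttccTCACCTTCTCCAAGTA
The other primers shown belong to the loci whose transcript level changed in roots at 2 h.
Os02g10070 forward: gagcattggaataggatctcag
Os02g10070 reverse: ccttcttgcagtggttctc
Os07g46920 forward: tcatcgaggaggacatgaa
Os07g46920 reverse: ttatgcccagtgatgtacttg
Os10g26570 forward: gctgttcatggtgcatttg
Os10g26570 reverse: cttgtggacttgatgacttct
How the read counting treated reads that match both PFP loci is not given in the sources used here, so the counts of Os02g48360 and Os09g12650 are uncertain to the extent that such reads exist.

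In roots 2 h after zaxinone application, the transcripts of a phosphofructokinase, the citrate synthase and the lignan enzyme had risen. With differences called at an adjusted p under 0.05 (edgeR's quasi-likelihood test, adjusted over all 23573 transcripts tested), 3 of the 9 loci were higher and 0 lower, where 0.543% of all transcripts tested were called higher and 0.0933% lower. The study's list also quotes root values at 2 and 24 h for some loci, so the tests at these times are not wholly independent of the choice. The libraries of zaxinone and mock roots did not overlap at 6 loci, 5 of them higher and 1 lower with zaxinone, where this held for 12.6% of all transcripts (7.42% higher, 5.16% lower). DESeq2 and the fit of all 36 libraries called 5 loci, with Os01g06660 and Os09g12650 in addition. Over all transcripts, DESeq2 called 468 of 23573 and the fit of all 36 libraries 506 of 25020, against 150 of 23573 in edgeR.

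At the start of glycolysis, the ATP-dependent phosphofructokinase Os10g26570 measured 84.0, 61.8 and 88.1 CPM in the mock roots at 2 h and 196, 184 and 199.9 CPM in the treated roots. All treated libraries were above all mock libraries, and the transcript was 2.47-fold higher (log2 fold change 1.31, SE 0.15, adjusted p = 0.00422). The PFP locus Os09g12650 measured 1.56, 1.79 and 6.88 CPM with mock and 12.96, 9.35 and 9.53 CPM with zaxinone. Although its groups did not overlap, a single mock library was well above the other mock libraries and the log2 fold change of 1.65 (SE 0.50) did not pass the test (adjusted p = 0.325). Without that library, mock replicate 3, the log2 fold change was 2.63 with an adjusted p of 0.0056 in edgeR. This was the only call in 6 fits with 1 library left out. The log2 fold changes of these fits ran from 1.29 to 2.63, with adjusted p of up to 0.725. The other PFP locus, Os02g48360, measured 112, 112 and 108 CPM with mock and 105, 75.7 and 93.0 CPM with zaxinone. Its treated libraries lay below the mock libraries, with a log2 fold change of -0.28 (SE 0.14) that did not pass the test (adjusted p = 0.728). The aldolase Os08g02700 ranged from 4.76 to 23.3 CPM in mock roots and from 7.79 to 11.4 CPM in treated roots, which overlapped, with a log2 fold change of -0.57 (SE 0.45).

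Around pyruvate, 0 of the 3 loci passed edgeR's test at 2 h. The decarboxylase Os01g06660 measured 17.8, 20.2 and 21.3 CPM in mock roots and 30.2, 28.7 and 33.5 CPM in treated roots. The groups did not overlap, but the log2 fold change of 0.63 (SE 0.14) had an adjusted p of 0.124 in edgeR, against 0.0185 in DESeq2 and 0.0386 in the fit of all 36 libraries. The dikinase Os05g33570 ranged from 252 to 297 CPM with mock and from 254 to 410.1 CPM with zaxinone (log2 fold change 0.21, SE 0.18), and the dihydrolipoyl dehydrogenase Os05g06460 from 35.5 to 41.7 and from 31.7 to 37.5 CPM (log2 fold change -0.14, SE 0.14). Both overlapped between the groups.

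At the entry of the TCA cycle, the citrate synthase Os02g10070 had the smallest standard error of the loci that rose. It measured 179.8, 187 and 193 CPM in mock roots and 389.5, 387 and 394 CPM in roots treated for 2 h, a 2.09-fold difference (log2 fold change 1.06, SE 0.11, adjusted p = 0.00312 in edgeR). The secoisolariciresinol dehydrogenase Os07g46920 had the largest change of the 9 loci at this time. Its level was 3.01, 4.72 and 3.61 CPM with mock, from 81 to 129 reads per library, and 19.4, 28.9 and 31.0 CPM with zaxinone, from 592 to 1108 reads. It was 6.95-fold higher (log2 fold change 2.80, SE 0.26, adjusted p = 0.00119 in edgeR), and ranked 21 from the top by log2 fold change among the 23573 transcripts. The photosynthesis loci, whose presence in roots was checked at the same time, summed to 512 to 2016 CPM in these mock roots and 437 to 1888 CPM in the treated roots; their part in these differences was not tested.

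**Figure D1:**
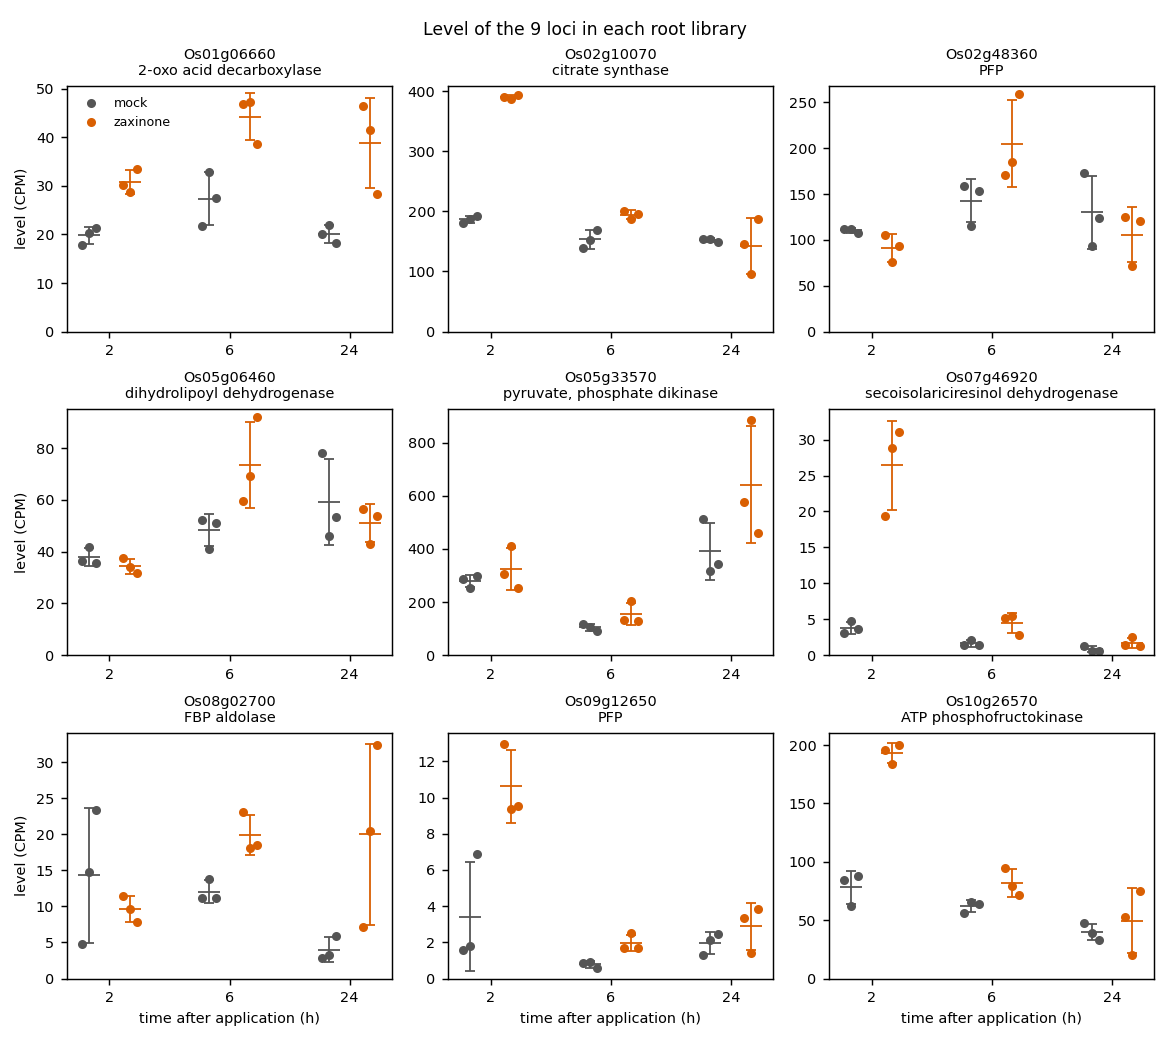
Level of each of the 9 loci in every root library, in CPM scaled within each time, against the time after application. Points are libraries, 3 per condition, and bars are the mean and SD. At 2 h the treated libraries of Os02g10070 lie at 387 to 394 CPM and the mock libraries at 179.8 to 193 CPM. At 24 h the treated libraries of Os08g02700 and Os10g26570 are spread widely.

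In roots at 6 h, the time for which the loci were chosen, all 9 were higher with zaxinone and at all 9 the treated libraries lay above the mock libraries, which describes the choice. Over all 23884 transcripts, 49.3% were higher with zaxinone and 11.6% had treated libraries above the mock libraries. The log2 fold changes ran from 0.34 to 1.45 with a median of 0.60, and the median of all transcripts tested was -0.0044. The widest difference was again that of Os07g46920, with 1.39, 2.16 and 1.34 CPM in mock roots and 5.12, 5.43 and 2.84 CPM in treated roots (log2 fold change 1.45, SE 0.30). Os09g12650 followed, with 0.882, 0.935 and 0.557 CPM against 1.70, 2.50 and 1.71 CPM (log2 fold change 1.31, SE 0.30). Both rested on few reads at this time, 17 to 53 per mock library.

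The other loci differed by less than 2-fold at 6 h. The aldolase Os08g02700 measured 11.2, 13.9 and 11.1 CPM with mock and 23.1, 18.1 and 18.5 CPM with zaxinone, a 1.65-fold difference. The decarboxylase Os01g06660 measured 21.8, 32.7 and 27.4 CPM in mock roots and 46.8, 47.1 and 38.7 CPM in treated roots, a 1.61-fold difference. Dihydrolipoyl dehydrogenase, dikinase and the PFP locus Os02g48360 were 1.52-, 1.49- and 1.43-fold higher. Os10g26570 and Os02g10070, which had passed the test at 2 h, had the smallest differences at 6 h. Os10g26570 measured 56.2, 65.4 and 64.0 CPM against 95.1, 79.1 and 71.8 CPM (1.32-fold), and Os02g10070 139, 152 and 169.6 CPM against 201, 188 and 195 CPM (1.27-fold).

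In roots at 24 h, 0 of the 9 loci passed edgeR's test, where 0.00423% of the 23616 transcripts tested did, and 3 loci had an unadjusted p under 0.05 (8.46% of all transcripts). Treated libraries lay above the mock libraries at 2 loci, where this held for 9.95% of all transcripts. The aldolase Os08g02700 measured 2.80, 3.28 and 5.94 CPM with mock and 7.19, 20.5 and 32.3 CPM with zaxinone. All treated libraries were above the mock libraries but differed among themselves by several fold, and the log2 fold change of 2.34 (SE 0.57) had an adjusted p of 0.41 in edgeR. The decarboxylase Os01g06660 measured 20.1, 22.0 and 18.1 CPM with mock and 46.3, 41.4 and 28.4 CPM with zaxinone (log2 fold change 0.97, SE 0.25, adjusted p = 0.414 in edgeR). DESeq2 called these loci in place of edgeR, 2 of 9. With library weights (limma's voomWithQualityWeights) they were called together with Os10g26570, and with a spread estimated over all 36 libraries they were called together with Os05g33570. These alternatives also called many more of all transcripts than edgeR did. The counts were 417 of 23616 with DESeq2, 760 of 23616 with library weights and 3365 of 25020 in the fit of all 36 libraries.

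The remaining loci overlapped between the groups at 24 h. The phosphofructokinase Os10g26570 measured 47.3, 38.6 and 33.4 CPM in mock roots and 52.9, 20.5 and 75.4 CPM in treated roots (log2 fold change 0.33, SE 0.42), and the citrate synthase Os02g10070 154, 154 and 149 CPM against 145, 95.3 and 188 CPM (log2 fold change -0.08, SE 0.25). For both, the lowest of these treated values is that of replicate 2, the library that stood apart. Without this library the log2 fold changes were 0.70 for Os10g26570 (adjusted p = 0.162 in edgeR) and 0.14 for Os02g10070 (adjusted p = 0.745). Os08g02700 and Os01g06660 were little affected by its removal, with log2 fold changes of 2.32 and 0.91 and adjusted p of 0.13 and 0.104 in edgeR. Among the others, Os07g46920 (1.04, SE 0.51), Os05g33570 (0.75, SE 0.32) and Os09g12650 (0.60, SE 0.44) had positive log2 fold changes, and Os02g48360 (-0.28, SE 0.29) and Os05g06460 (-0.19, SE 0.25) negative ones. Without replicate 2 of the treated roots, the log2 fold changes were 0.65 for Os07g46920, 0.42 for Os05g33570, 0.91 for Os09g12650, -0.071 for Os02g48360 and -0.089 for Os05g06460. The values of all of these except Os09g12650 were thus closer to 0 without this library.

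The change of the zaxinone effect between 2 h and 24 h in roots was tested as an interaction. None of the 9 loci passed edgeR's test at an adjusted p under 0.05 (0 of 9, against 0.00408% of 24507 transcripts), and 3 had an unadjusted p under 0.05, where 5.86% of all transcripts did. The effect on Os08g02700 was larger at 24 h by 2.95 on the log2 scale (SE 0.81, adjusted p = 0.66), and the effects on Os02g10070 and Os07g46920 differed by -1.11 (SE 0.27, adjusted p = 0.642) and -1.77 (SE 0.55, adjusted p = 0.709). DESeq2 called 1 of the 9 loci and the fit over all 36 libraries 2. Over all transcripts, DESeq2 called 77 of 24507 and the fit over all 36 libraries 309 of 25020.

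**Figure D2:**
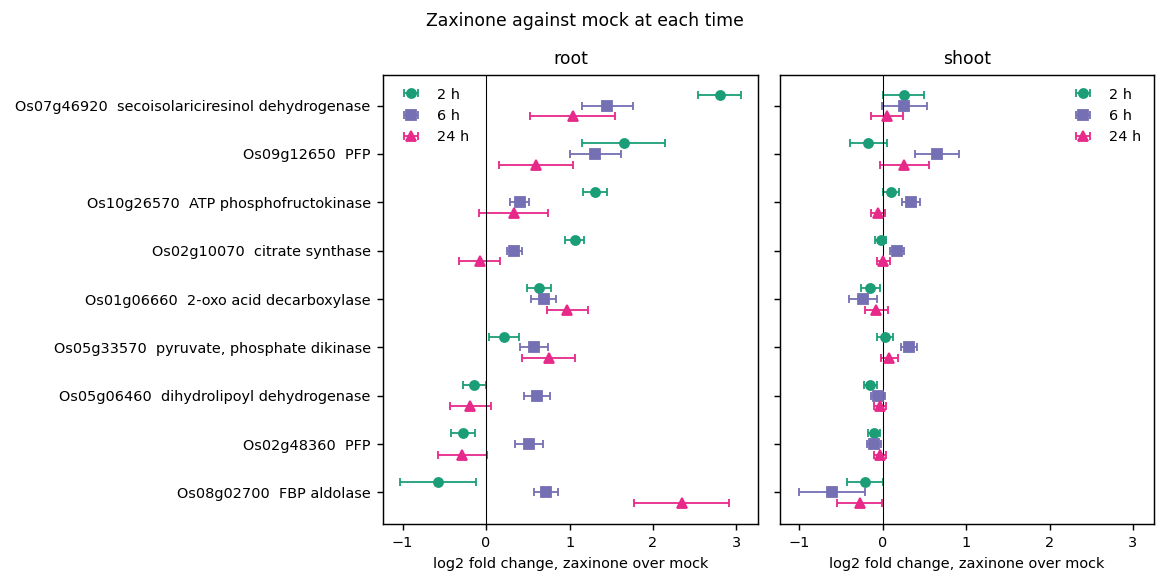
Log2 fold change of zaxinone over mock at 2, 6 and 24 h in roots and in shoots, with the standard error derived from edgeR's test (3 libraries in each group). In roots at 2 h Os07g46920, Os10g26570 and Os02g10070 stand at 2.80, 1.31 and 1.06, and in shoots the values of the 9 loci lie between -0.60 and 0.65.

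The shoot libraries were not used to choose the loci, and in shoots 0 of the 9 loci passed edgeR's test at 2, 6 or 24 h. Of all transcripts tested, 0%, 0.00433% and 0% were called at these times. With an unadjusted p under 0.05 there were 0, 3 and 0 of the 9 loci, against 4.04%, 11.8% and 3.95% of all transcripts, and DESeq2 called 0 of the 9 at each time. At 2 h the log2 fold changes lay between -0.21 and 0.25, and at 24 h between -0.27 and 0.26. The mock and treated libraries overlapped at all 9 loci at both times with CPM scaled within the time, where 9.31% and 8.7% of all transcripts did not. Scaled over all 36 libraries, those of Os10g26570 at 24 h did not.

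At 6 h the shoot values were more spread, from -0.60 to 0.65. Treated libraries lay above the mock libraries at 3 loci, where this held for 8.15% of all transcripts. The phosphofructokinase Os10g26570 measured 13.2, 13.7 and 14.4 CPM in mock shoots and 16.8, 18.8 and 17.0 CPM in treated shoots (log2 fold change 0.34, SE 0.11, adjusted p = 0.305 in edgeR). The dikinase Os05g33570 measured 347, 347 and 309 CPM against 401, 387 and 465 CPM (log2 fold change 0.32, SE 0.09, adjusted p = 0.293), and the citrate synthase Os02g10070 50.5, 60.0 and 54.7 CPM against 61.8, 61.2 and 63.4 CPM (log2 fold change 0.17, SE 0.08, adjusted p = 0.444). The PFP locus Os09g12650 had a log2 fold change of 0.65 (SE 0.27, adjusted p = 0.373 in edgeR) and the aldolase Os08g02700 one of -0.60 (SE 0.39), from 0.878 to 3.53 CPM in treated shoots, and both overlapped between the groups.

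**Figure D3:**
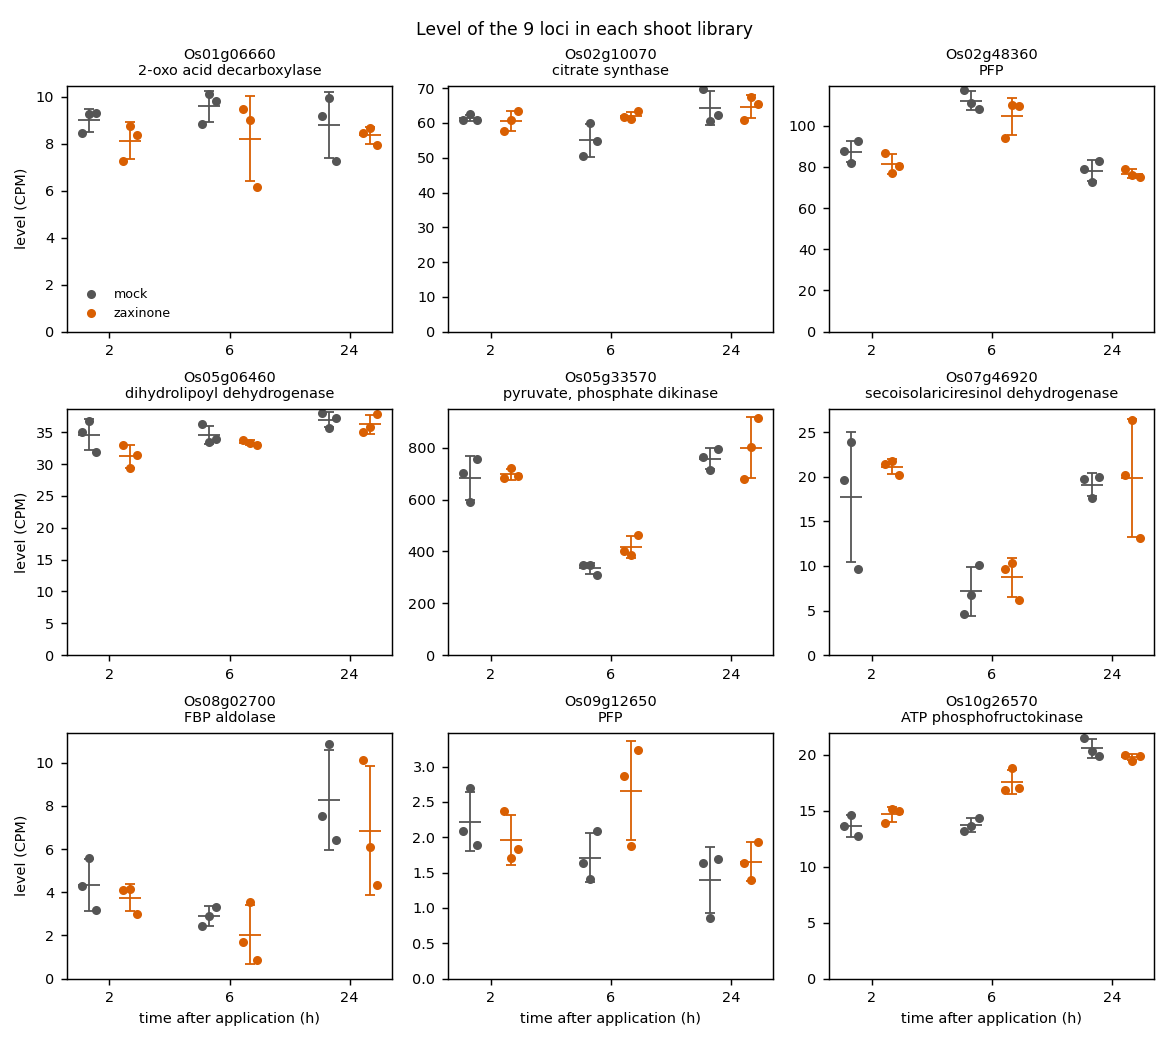
Level of each of the 9 loci in every shoot library, in CPM scaled within each time, against the time after application. Points are libraries, 3 per condition, and bars are the mean and SD. At 6 h the treated libraries of Os10g26570 lie at 16.8 to 18.8 CPM, above the mock libraries at 13.2 to 14.4 CPM, and at 2 h they overlap.

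At 2 h the effect of zaxinone on the loci that rose in roots was larger in roots than in shoots. In the test of this difference (edgeR, interaction of organ and treatment, 24725 transcripts), 3 of the 9 loci passed with a larger effect in roots and 0 with a smaller one, against 0.218% and 0.00404% of all transcripts. The log2 fold changes of the organs differed by 1.06 for Os02g10070 (SE 0.12, adjusted p = 0.00145), by 2.53 for Os07g46920 (SE 0.41, adjusted p = 0.0214) and by 1.18 for Os10g26570 (SE 0.17, adjusted p = 0.0108). The root values of these loci also enter the root comparison, so this is not a second piece of evidence for their rise. The call of Os02g10070 held in each of 12 fits with 1 library left out. That of Os07g46920 was lost in 8 of 12, with adjusted p of up to 0.0823, and that of Os10g26570 without treated shoot replicate 1 (adjusted p = 0.0522) and in the fit of all 36 libraries. In mock shoots at 2 h Os07g46920 measured 19.6, 23.9 and 9.66 CPM, and in treated shoots 21.5, 21.7 and 20.2 CPM. The lowest of these values is of mock replicate 3. At 24 h, 0 of the 9 loci differed between the organs in their response (edgeR; 0.0163% of 24536 transcripts were called, 2 of the 9 loci and 6.99% of all had an unadjusted p under 0.05), while DESeq2 called 0 and the fit of all 36 libraries 2. The values of Os08g02700 and Os01g06660 were 2.62 (SE 0.70, adjusted p = 0.476) and 1.05 (SE 0.29, adjusted p = 0.483) in edgeR. For this organ difference at 24 h, DESeq2 called 127 of 24536 transcripts and the fit of all 36 libraries 164 of 25020.

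Without zaxinone, most of the loci differed between root and shoot. At 2, 6 and 24 h, 6, 7 and 6 of the 9 loci were called between mock roots and mock shoots, where 63.5%, 71.7% and 71% of all transcripts were, so the share of the loci is close to that of the transcripts at large. The mock root libraries of 6 h also belong to the comparison for which the loci were chosen. The organ tests at 6 h are therefore not independent of that choice. Root and shoot libraries carry different name series in the study's sample list, so the organ and the library series cannot be told apart. Higher in roots at all 3 times were the phosphofructokinase Os10g26570, by 2.17, 1.88 and 0.53 on the log2 scale, the citrate synthase Os02g10070, by 1.27, 1.19 and 0.83, and the decarboxylase Os01g06660, by 0.80, 1.22 and 0.77. The largest adjusted p of these values was 0.00273, for Os10g26570 at 24 h (edgeR).

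Lower in roots at all 3 times were the dikinase Os05g33570, with log2 differences of -1.63, -1.98 and -1.37, and the secoisolariciresinol dehydrogenase Os07g46920, with -2.56, -2.44 and -4.88. The latter was at 1.32, 0.579 and 0.569 CPM in mock roots at 24 h, from 12 to 41 reads per library, and at 19.8, 17.7 and 19.97 CPM in mock shoots. The aldolase Os08g02700 changed sides: its log2 difference was 1.38 at 2 h (SE 0.48, adjusted p = 0.0328 in edgeR, lost in 4 of 6 fits with a library left out) and 1.76 at 6 h, but -1.47 at 24 h (SE 0.30, adjusted p = 0.00151). Os09g12650 was lower in roots at 6 h, by -1.42 on the log2 scale (SE 0.30), and was not called at 2 or 24 h. Since a low level in these mock roots also favours the choice of a locus, this value is a description. Dihydrolipoyl dehydrogenase and the PFP locus Os02g48360 did not pass the test at any time, with log2 differences between -0.20 and 0.32.

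**Figure D4:**
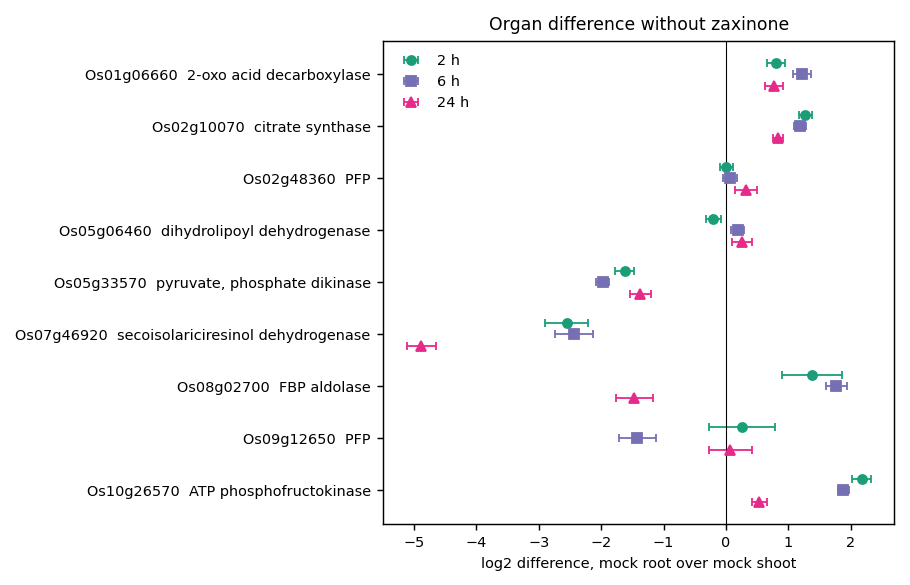
Log2 difference between mock roots and mock shoots at 2, 6 and 24 h for each of the 9 loci, with the standard error derived from edgeR's test (3 libraries in each group). Values right of 0 are higher in roots. Os10g26570 falls from 2.17 at 2 h to 0.53 at 24 h, and Os08g02700 goes from 1.76 at 6 h to -1.47 at 24 h.

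The levels of some loci also differed between harvest times in mock plants. From 2 h to 24 h, 3 loci were lower in mock roots and 0 higher, where 13.3% of all transcripts were called in either direction. These were Os07g46920, by a log2 difference of -2.21 (SE 0.40, adjusted p = 0.00504), Os08g02700, by -1.88 (SE 0.50, adjusted p = 0.0315, lost in 4 of 6 fits with a library left out) and Os10g26570, by -1.02 (SE 0.17, adjusted p = 0.00387), all in edgeR. In mock shoots from 2 h to 6 h, 4 loci were lower and 1 higher, against 28.1% of all transcripts called. The dikinase Os05g33570 went from 702, 589.5 and 757 CPM to 347, 347 and 309 CPM, a log2 difference of -1.10 (SE 0.10, adjusted p = 7.4e-06). Os07g46920 fell by 1.37 (SE 0.30, adjusted p = 0.0054). The smaller differences of Os08g02700 (-0.66), Os02g10070 (-0.23) and Os02g48360 (0.29) had adjusted p of 0.0445, 0.044 and 0.0129, and their calls were lost in 5, 5 and 2 of 6 fits with a library left out and in the fit of all 36 libraries. From 2 h to 24 h in mock shoots, Os08g02700 and Os10g26570 were higher, by 0.99 (SE 0.23, adjusted p = 0.00888) and 0.65 (SE 0.09, adjusted p = 0.000376), where 27.8% of all transcripts were called. These 2 of the 9 loci are no larger a share than that of the transcripts at large. Both calls were lost in the fit of all 36 libraries, with adjusted p of 0.201 and 0.0734.

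Ordered by level over the 12 conditions, with CPM scaled over all 36 libraries, the loci had different maxima. The conditions include mock and treated roots at 6 h, on which the loci were chosen. A lowest or highest value there is therefore a description that the choice favours. Os02g10070 was highest in roots treated for 2 h (356 ± 8.19 CPM, SD, n = 3), 6.07-fold above its lowest condition, mock shoots at 6 h (58.6 ± 4.81 CPM). Os10g26570 had the same highest and lowest conditions, at 176 ± 8.10 and 14.6 ± 0.61 CPM. Os07g46920 was also highest in roots treated for 2 h (24.2 ± 6.04 CPM), where its level reached that of the shoots, and it was lowest in mock roots at 24 h (0.738 ± 0.37 CPM). Os09g12650 went from 9.66 ± 1.65 CPM in roots treated for 2 h to 0.69 ± 0.18 CPM in mock roots at 6 h. Os05g33570 was highest in treated shoots at 24 h, at 925 ± 142 CPM, and lowest in mock roots at 6 h, at 90.8 ± 11.4 CPM. Neighbouring conditions in these orders mostly overlapped: of the 11 pairs of neighbours, 5 overlapped for Os10g26570, 6 for Os02g10070 and 11 for Os05g06460 and Os08g02700. The dihydrolipoyl dehydrogenase and the PFP locus Os02g48360 varied least, by 1.99- and 2.08-fold between their highest and lowest mean. The highest mean of each was that of treated roots at 6 h.

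The patterns of the loci over the conditions had little in common as a group. Over the 36 pairs of loci, the Pearson correlation of the mean log2 CPM across 12 conditions ranged from -0.71 to 0.98 with a median of 0.066. The points share libraries and organ, and include mock and treated roots at 6 h, on which the loci were chosen. The correlations are therefore a description. The nearest pair was Os02g10070 and Os10g26570, at 0.98, followed by the decarboxylase Os01g06660 with Os02g10070, at 0.82. Among 21776 other transcripts with a mean of at least 1 CPM, loc_os01g06640.1 was nearest to Os02g10070 (0.99) and loc_os03g50130.1 to Os10g26570 (0.99). The lowest correlation was that of Os05g33570 with Os02g48360.

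The list from which the study took these loci holds 15 other loci of glycolysis, pyruvate and the TCA cycle, among them 4 for pyruvate kinase and others for aldolase, glyceraldehyde-3-phosphate dehydrogenase, phosphoglycerate mutase, the pyruvate dehydrogenase complex and malate dehydrogenase. This list too was chosen on root values at 6 h, where 15 of 15 had a positive log2 fold change with a median of 0.35. At 2 h in roots, 0 of the 15 passed edgeR's test and 0 had an unadjusted p under 0.05, with log2 fold changes from -0.25 to 0.30 and a median of 0.0072, beside a median of 0.63 for the 9 loci and -0.0066 for all transcripts tested. At 24 h in roots, 0 of 15 passed, 12 were positive, and the median was 0.22, beside 0.60 for the 9 loci. In shoots 0 of the 14 loci tested at 2 and 24 h and 0 of the 15 at 6 h passed. The medians were -0.066, -0.10 and -0.031 at 2, 6 and 24 h. Of all transcripts tested, 0.636% passed in roots at 2 h and 0.00423% at 24 h. In shoots 0%, 0.00433% and 0% passed at 2, 6 and 24 h. An unadjusted p under 0.05 in roots at 2 h held for 7.65% of all transcripts. The difference between the lists was not tested.

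**Figure D5:**
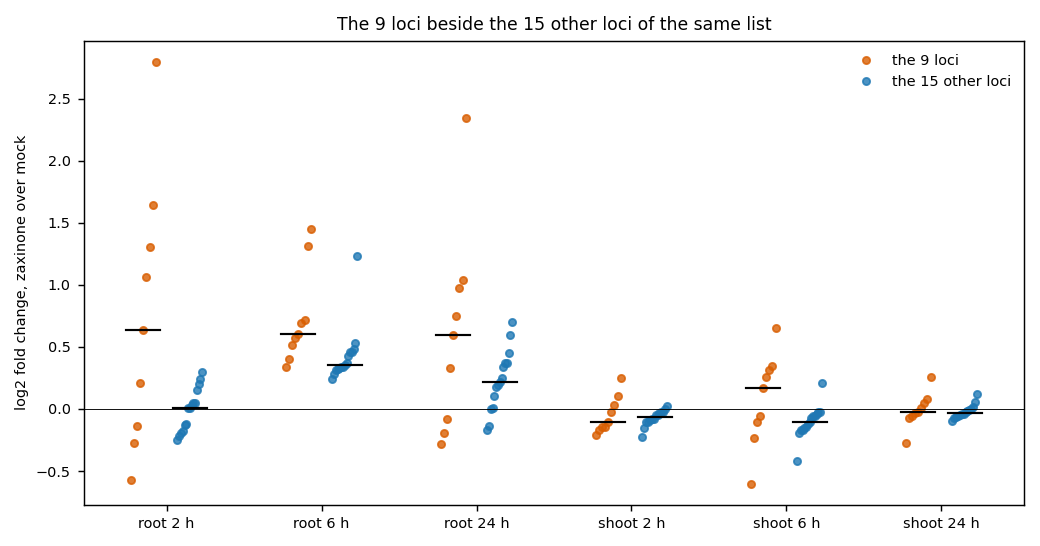
Log2 fold change of zaxinone over mock for the 9 loci and for the 15 other loci of the same list, in each organ and time. Each point is a locus and black lines are medians. In shoots at 2 and 24 h, 14 of the 15 other loci were tested and are shown. In roots at 2 h the 15 other loci lie between -0.25 and 0.30, and the 9 loci between -0.57 and 2.80.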

How the data were processed

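RNA was sequenced in 36 libraries of roots and shoots. According to the study's methods and the submitters' processing notes, the authors trimmed reads with Trimmomatic, aligned them to the rice genome with HISAT2 and counted them with HTSeq. The deposited tables, 1 for each organ and time, hold raw read counts per transcript; transcripts with few counts are not listed, the lowest total of a listed row being 2. The authors' columns of log2 fold changes and p-values from DESeq2 were not used.

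CPM values were computed from the counts with TMM scaling, within each organ and time unless stated. Counts were tested in R 4.3.3 with edgeR 4.0.16 (filterByExpr, TMM, glmQLFit and glmQLFTest), with Benjamini-Hochberg adjustment over all transcripts tested; all 9 loci passed the filter in each comparison. Organs and times were compared in joint fits of the libraries concerned. Standard errors were derived from edgeR's test, as the absolute log2 fold change divided by the square root of its F statistic. As alternatives, DESeq2 1.42.0 replaced edgeR, its size factors replaced TMM, the filter was dropped or tightened to 10 counts or more in each library, replicate numbers entered as a block, 1 fit took all 36 libraries, limma 3.58.1 weighted the libraries of roots at 24 h (voomWithQualityWeights), and libraries were left out in turn. Some of the fits were also run on simulated counts with known changes, and the outcome is not given here. The simulation held no library that stood apart from the others.

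The loci and lists were chosen with earlier results of these data known. The 9 loci were named by the study's list; where few passed a test, the remaining loci were given by counts or ranges. The 15 other loci were given by counts, medians and ranges only. Likeness was the Pearson correlation of mean log2 CPM (prior count 1). Replicates are separate samples by their labels, of seedlings whose number per sample is not given in the sources used here. The 36 pairs of replicates of a condition differed by more than sampling noise (chi-square per degree of freedom of at least 5.50). No annotation was matched to the identifiers, so positions, promoters and proteins were not analysed here. The qRT-PCR values were not analysed here.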

Additional observations from a re-analysis of the deposited data

Results flagged for a closer look

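For 3 loci the effect of zaxinone at 2 h differed between roots and shoots by edgeR's test of the interaction. The log2 fold change in roots exceeded that in shoots by 1.06 for the citrate synthase locus Os02g10070, by 2.53 for the secoisolariciresinol dehydrogenase locus Os07g46920 and by 1.18 for the phosphofructokinase locus Os10g26570. The root values of these loci also enter the root comparison, so this is not a second piece of evidence for their rise. Of 12 fits with 1 library left out, the call held in 12 for Os02g10070, 4 for Os07g46920 and 11 for Os10g26570. In the fit of all 36 libraries Os10g26570 was not called (adjusted p = 0.141 in edgeR). Root and shoot libraries carry different name series, and their part in the organ difference was not tested.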

How the results depend on the processing

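The calls in roots at 2 h for Os07g46920, Os10g26570 and Os02g10070 held in every alternative and with each library left out. The number of the 9 loci called changed by more than 1.5 times in these cases. DESeq2 called 5 in roots at 2 h, 2 in roots at 24 h and 1 for the change of the root effect from 2 to 24 h. The fit of all 36 libraries called 5, 3 and 2 of these, 2 for the organ difference of the effect at 24 h, 2 for mock shoots from 2 to 6 h and 0 for mock shoots from 2 to 24 h; voomWithQualityWeights called 3 in roots at 24 h. With 1 library left out, the counts were 1 to 3 for the organ difference of the effect at 2 h and 2 to 4 for mock shoots from 2 to 6 h. Over all transcripts, DESeq2 called 468 in roots at 2 h and 417 at 24 h, against 150 and 1 in edgeR, and the fit of all 36 libraries 506 and 3365. In roots at 24 h voomWithQualityWeights called 760. For the change of the root effect, DESeq2 called 77 and the fit of all 36 libraries 309. That fit also called 164 for the organ difference of the effect at 24 h. In mock shoots it called 2510 from 2 to 6 h and 2045 from 2 to 24 h, against 6538 and 6440 in edgeR.

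Among the values given by themselves, the direction of 4, all uncalled, was not stable. In roots at 24 h, Os02g10070 was at 0.17 on the log2 scale with voomWithQualityWeights and between -0.32 and 0.14 with 1 library left out, Os05g06460 between -0.34 and 0.054, and Os10g26570 between -0.094 and 0.70. Os05g33570 in roots at 2 h was between -5.89e-05 and 0.37. Of the loci given within a range or by count, 29 results, all uncalled, changed direction with a library left out and 5 with another alternative. The cause was not tested. Samples with equal replicate numbers were not treated as pairs in the main fits. The deviations of 18 such pairs correlated between -0.18 and 0.27 (median 0.056), with 5 over 0.1. In 12 of the 18, the best match among 3 candidates had the same number. Whether the numbers mark pairs was not tested. With the replicate number as a block, 203 transcripts in place of 150 were called in roots at 2 h. At 6 h these counts were 563 and 384, and at 24 h 0 and 1. With the replicate number as a block, 3 loci in place of 5 were called in mock shoots from 2 to 6 h, and 5991 of all transcripts in place of 6538.

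Few reads covered Os07g46920 in mock roots at 24 h (12 to 41 per library) and Os09g12650 in mock roots at 6 h (17 to 23), and 3 libraries per condition limit all comparisons.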
